A study of Mus musculus with 36 samples.

Results

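The livers of mice fed a high-fat diet with lingonberry were compared with those of mice fed a high-fat diet with bilberry, which sets 2 berries of the genus Vaccinium against each other on the same base diet. The 12 arrays of these diets, chosen by the diet in their titles, are part of 36 arrays that hold the liver RNA of 1 male mouse each. The lingonberry group ate high-fat chow (45% of energy from fat) of which freeze-dried lingonberries made up 20% of the weight. For the bilberry group freeze-dried bilberries took that place at the same 20%. Further groups of 6 mice had the high-fat diet with 20% blackcurrants or açai, the high-fat diet alone, or low-fat chow (10% of energy from fat). All mice were fed for 13 weeks and were 20 weeks old, and the strain reads C57BL/6J on the single samples but C57BL/6JBomTac in the description of the series. RNA was hybridized to 6 MouseWG-6 v2.0 beadchips, each of which held 1 liver of every diet, so that a lingonberry and a bilberry liver could be compared on each chip. Lingonberry livers always had the same position on the chip, and bilberry livers another one, so chip position and diet cannot be told apart.

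Bilberries are known for a high content of blue anthocyanins, whereas lingonberries hold less of these and more proanthocyanidins and organic acids. The liver takes up plant phenolics from the portal blood and clears them with cytochrome P450 enzymes, glucuronosyltransferases and transporters that are induced through nuclear receptors. The liver is also a main site of cholesterol synthesis, a chain of enzymes from acetyl-CoA through mevalonate, farnesyl diphosphate, squalene and lanosterol to cholesterol. Transcription of this chain is driven by SREBP2, which is released when sterols in the cell run low and which works beside the CCAAT-binding factor NF-Y.

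Between 14240 and 15425 probes were detected on each of the 12 arrays, the median raw intensity lay between 82.6 and 101, and the arrays correlated with the others at 0.979 to 0.986. Intensities were background corrected, quantile normalized and given on a log2 scale, so that a difference of 1 is a 2-fold change in intensity. The 17907 probes with a detection p-value below 0.05 on 6 or more of the 36 arrays were tested with limma, with the chip as a block. A probe was called when its p-value, adjusted over all probes tested, was below 0.05. RNA came from whole liver, in which fewer cells of a type and less RNA per cell cannot be told apart. Hepatocyte markers were high in both groups, with array means of 12.26 to 12.74 in lingonberry livers and 12.35 to 12.54 in bilberry livers. Pancreatic acinar markers, digestive enzymes absent from hepatocytes, were high on the chip 2 array of both diets. On that chip the mean over 17 tested pancreatic genes was 9.58 in the lingonberry liver and 8.22 in the bilberry liver, against at most 5.28 and 5.33 in the other livers of these diets. The skeletal muscle gene Acta1 stood at 7.98 and 10.26 in lingonberry replicates 1 and 2, at no more than 5.02 in the other 4 lingonberry livers and at no more than 4.28 in bilberry livers.

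Lingonberry and bilberry livers differed in the expression of 99 probes, 0.553% of those tested. Of these, 35 were higher with lingonberry, 0.195% of the probes tested, and 64 were lower, 0.357%. The called probes with a single gene symbol belonged to 74 genes, 29 of them higher and 45 lower with lingonberry. On the log2 scale the called differences ran from -2.63 to 1.93 with a median size of 0.71, and 25 of the 99 were larger than 1. Of the 99 called probes, 92 had the same sign on all 6 chips. For 52 of the 99 the lingonberry and bilberry values did not overlap, while 0.843% of all probes tested were separated in this way. Both counts describe probes called from these same arrays, so they lend the calls no support. Without the chip as a block the count of called probes was 44, all of them among the 99. With only the 12 arrays of the 2 diets it was 80, of which 45 were among the 99. The count depended on single mice, from 40 without bilberry replicate 5 to 199 without lingonberry replicate 4. For comparison, lingonberry against blackcurrant gave 332 called probes (1.85%), blackcurrant against bilberry 76 (0.424%), açai against lingonberry 940 (5.25%) and açai against bilberry 239 (1.33%). These counts share arrays with one another, and whether they differ was not tested.

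**Figure D1:**
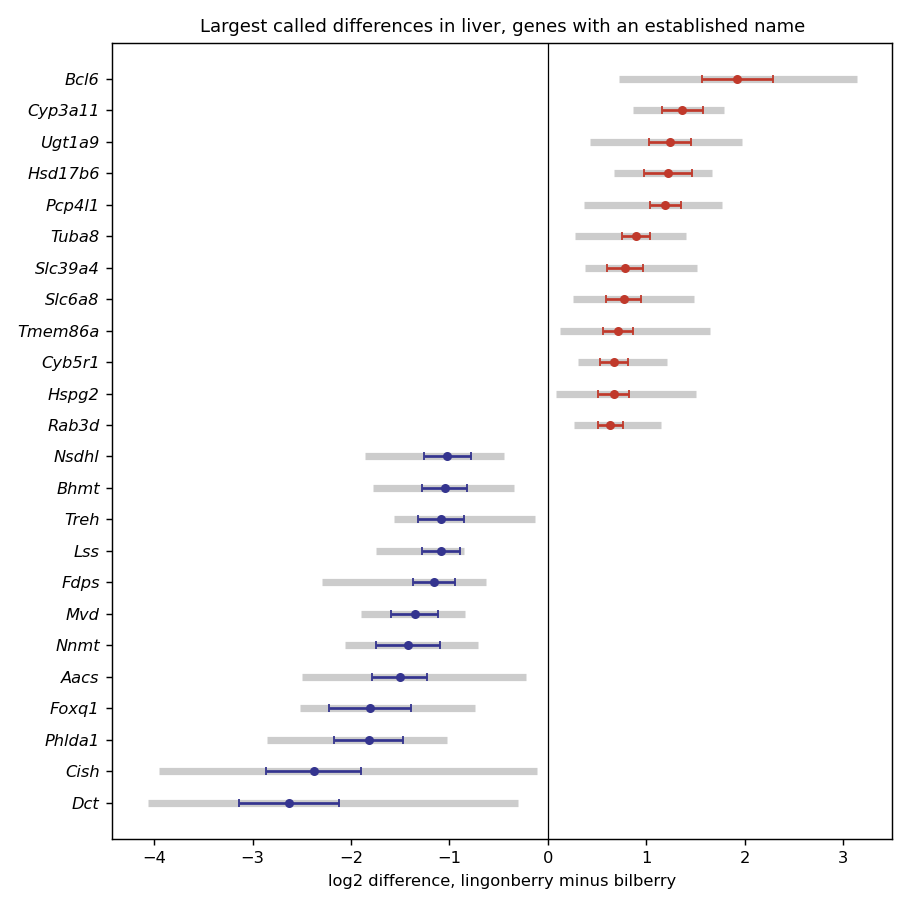
The 12 largest called differences in each direction among genes with an established name, alike in sign on 5 or more of the 6 chips, which leaves out Gm4956 at -1.27, ILMN_2540103 at -1.25 and ILMN_1239982 at 1.27. Points are log2 differences, lingonberry minus bilberry, with the standard error of the fit, and grey bars span the differences on the 6 chips; the differences shown run from Bcl6 at 1.93 to Dct at -2.63.

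Genes of cholesterol synthesis were lower with lingonberry. Of the 20 enzymes of the chain, 14 had a tested probe and were read through their brightest probe. Of these 14, 5 fell at an adjusted p below 0.05 and none rose, against 0.357% of all probes called lower. All 14 differences were negative, with a median of -0.74 on the log2 scale, while the median over all 10281 genes tested was 0.0056. In 8 of the 14 genes no lingonberry liver reached the lowest bilberry liver, a separation found in this direction in 0.497% of all probes tested.

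The upstream windows of 4 of the genes that fell are shown because they carry the CCAAT box (capitals; CCAAT or, on the other strand, ATTGG) at which NF-Y binds beside SREBP2. The sequences are from RefSeq on GRCm38.p6, 250 bases before a transcript start, written 5′ to 3′ on the strand of the gene. Mvd lies at chr8:122443423-122443672 on the minus strand, Lss at chr10:76531355-76531604 on the plus strand, Msmo1 at chr8:64733579-64733828 on the minus strand. Dhcr7 is shown through the third of its annotated starts, at chr7:143829964-143830213 on the plus strand, since the windows of its first 2 starts held no CCAAT box.
Mvd: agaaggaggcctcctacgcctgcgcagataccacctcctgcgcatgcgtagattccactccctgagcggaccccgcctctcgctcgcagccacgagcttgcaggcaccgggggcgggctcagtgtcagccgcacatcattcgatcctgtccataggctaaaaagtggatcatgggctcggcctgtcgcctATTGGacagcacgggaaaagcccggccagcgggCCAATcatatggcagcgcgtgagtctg
Lss: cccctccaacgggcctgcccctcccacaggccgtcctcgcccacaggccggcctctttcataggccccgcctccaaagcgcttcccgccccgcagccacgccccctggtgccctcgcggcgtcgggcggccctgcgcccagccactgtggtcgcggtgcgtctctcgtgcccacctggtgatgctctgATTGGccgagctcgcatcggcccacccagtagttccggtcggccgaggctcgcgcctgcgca
Msmo1: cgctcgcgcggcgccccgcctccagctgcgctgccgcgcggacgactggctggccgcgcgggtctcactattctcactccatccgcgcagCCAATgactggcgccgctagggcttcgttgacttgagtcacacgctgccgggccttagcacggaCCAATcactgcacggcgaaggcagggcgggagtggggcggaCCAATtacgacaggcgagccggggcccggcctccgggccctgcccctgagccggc
Dhcr7: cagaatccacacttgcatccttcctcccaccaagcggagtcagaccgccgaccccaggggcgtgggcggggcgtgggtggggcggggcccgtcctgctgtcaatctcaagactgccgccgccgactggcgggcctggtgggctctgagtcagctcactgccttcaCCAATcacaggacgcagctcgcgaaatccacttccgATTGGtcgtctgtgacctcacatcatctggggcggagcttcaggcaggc
Of the 14 tested cholesterol genes, 12 had a window in the table, and all 12 held a CCAAT box in at least 1 window. The box was present in 37.5% of all 27025 genes of the table and in 40.6% of the 8361 with a tested probe. It stood in 61.8% of the 34 genes with a probe called lower with lingonberry and in 30.8% of the 26 genes with a probe called higher. The 34 include cholesterol genes already counted among the 12, such as Mvd, Lss, Msmo1, Dhcr7 and Nsdhl, so the shares are not independent. The sterol element searched as TCACNCCAC on both strands was in none of the 12. It was in 1.22% of all genes of the table and in 1.33% of those with a tested probe. These matches describe letters in the windows and not sites in use.

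The early steps included Mvd, which makes isopentenyl diphosphate. It read 4.54 at the lowest, 5.37 at the median and 5.51 at the highest in lingonberry livers, against 6.35, 6.51 and 6.76 in bilberry livers. The groups did not overlap, the difference was -1.35 ± 0.24 (SE; limma, adjusted p = 0.00584), and 1 lingonberry liver was not detected above background for this probe. Fdps, which joins isoprene units into farnesyl diphosphate, read 9.86, 11.13 and 11.40 in lingonberry livers against 11.91, 12.15 and 12.34 in bilberry livers. Every lingonberry liver lay below every bilberry liver, and Fdps fell by 1.15 ± 0.21 on the log2 scale (limma, adjusted p = 0.00663). A dim second Fdps probe gave -0.57 and did not pass (limma, adjusted p = 0.11).

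Lss, which closes the sterol ring to form lanosterol, had values of 6.59, 7.48 and 7.78 with lingonberry and a narrow 8.32, 8.49 and 8.65 with bilberry. The 2.13-fold gap left the groups without overlap, with a difference of -1.09 ± 0.19 (limma, adjusted p = 0.0057), whereas a dim second Lss probe gave -0.08. Msmo1, which removes methyl groups from the sterol ring, read 9.25, 10.77 and 11.02 with lingonberry against 11.28, 11.44 and 11.74 with bilberry, a fall of 0.96 ± 0.23 (limma, adjusted p = 0.0414). Dhcr7, the enzyme of the last step to cholesterol, read 6.24, 7.02 and 7.35 with lingonberry against 7.59, 7.86 and 7.98 with bilberry, a fall of 0.85 ± 0.20 (limma, adjusted p = 0.0428). Neither gene's groups overlapped.

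Other enzymes of the chain differed in the same direction without passing at their brightest probe. Hsd17b7 differed by -0.61 ± 0.15 (limma, adjusted p = 0.0558), Pmvk by -0.64 ± 0.18 (adjusted p = 0.104) and Sqle, the epoxidase of squalene, by -1.09 ± 0.32 (adjusted p = 0.112). Nsdhl, an X-linked enzyme of sterol demethylation, had 4 tested probes, of which 2 were called. Its called probe with the largest difference read 6.14, 7.09 and 7.68 with lingonberry against 7.79, 8.11 and 8.38 with bilberry, a difference of -1.02 ± 0.24 (limma, adjusted p = 0.0412), while the brightest gave -0.79 (adjusted p = 0.0838). The smallest difference of the 14 was that of Ebp, at -0.20 ± 0.08 (adjusted p = 0.295).

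Lingonberry replicate 3 was the lowest liver for several of these genes, at 9.86 for Fdps and 6.59 for Lss. Without it the median of the list was -0.57, the smallest in size with 1 array left out. The count of called genes was 3 in 9 of the 12 fits that left out 1 lingonberry or bilberry array, this one included. The SD of Lss was 0.42 in lingonberry and 0.14 in bilberry livers, and that of Fdps 0.57 in lingonberry and 0.15 in bilberry livers.

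Both berries were also set against the high-fat diet alone, with the same 6 high-fat arrays in both comparisons. None of the 14 cholesterol genes was called by limma in lingonberry against high-fat livers, where 717 probes, 4% of those tested, were called. The median of the list was 0.16, and 4 of the 14 had an unadjusted p below 0.05. The share of all probes at that unadjusted p was not counted in this comparison. In bilberry against high-fat livers 10 of the 14 were called higher, where 0.290% of all probes were (0.318% lower, 0.609% in either direction), with a median of 0.91. Lss stood at -0.03 (adjusted p = 0.953) with lingonberry and at 1.05 (adjusted p = 0.00788) with bilberry. Msmo1 stood at 0.22 (adjusted p = 0.68) with lingonberry and 1.17 (adjusted p = 0.00884) with bilberry. Mvd was called against high-fat in neither, at -0.55 (adjusted p = 0.217) with lingonberry and 0.81 (adjusted p = 0.139) with bilberry. Açai livers averaged 6.35 ± 0.42 for Mvd and 12.08 ± 0.38 for Fdps, and blackcurrant livers 5.48 ± 0.86 and 11.06 ± 0.53 (SD, n = 6 each).

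**Figure D2:**
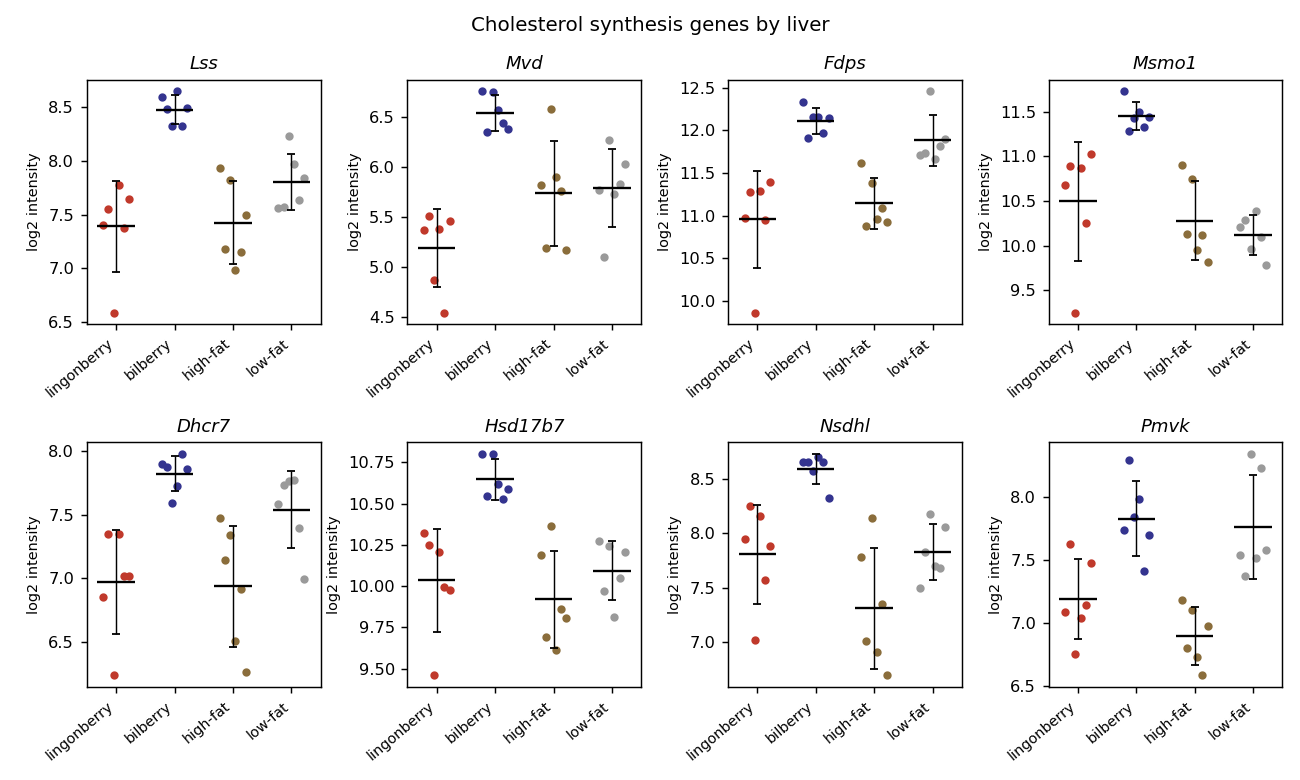
Log2 intensity of 8 cholesterol synthesis genes, each through its brightest probe, in 6 livers of 4 diets. Points are single livers in the order of the 6 chips, lines are means and bars 1 SD; lingonberry and bilberry livers overlap for Pmvk only.

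In the list of cholesterol uptake, export and control, none of 14 tested genes was called by limma at its brightest probe. Of these, 4 had an unadjusted p below 0.05, as 11.4% of all probes tested did, and 6 differences were positive and 8 negative, with a median of -0.03. Insig1, a member which holds the SREBP escort in the endoplasmic reticulum, gave -0.30 at its brightest probe (adjusted p = 0.235). Of its 3 tested probes 1 was called, at -0.66 ± 0.16 (limma, adjusted p = 0.0419), which was chosen after its values were seen.

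Aacs, which turns acetoacetate into a cytosolic precursor of lipids and is in none of the lists, was among the largest falls. It read 7.27, 7.97 and 8.38 with lingonberry against 8.36, 9.59 and 10.21 with bilberry. The highest lingonberry liver just passed the lowest bilberry liver, and Aacs fell by 1.51 ± 0.28 (limma, adjusted p = 0.00663). The next 3 genes, also in no list, were chosen after their values were seen. Tlcd2 and Tlcd1, membrane proteins that affect the fluidity of phospholipid membranes, were called lower on all 3 tested probes of Tlcd2, at -0.85, -0.71 and -0.52, and on the single probe of Tlcd1, at -0.48. Mmab, an enzyme of vitamin B12 activation, was lower on 1 of 4 probes, at -0.59 ± 0.14 (adjusted p = 0.0419).

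Of the fatty acid synthesis list, 3 of 20 tested genes were called lower with lingonberry and none higher, with a median of -0.26, while 0.357% of all probes were called lower. Acacb, the mitochondrial acetyl-CoA carboxylase whose product restrains fat oxidation, read 6.10, 6.64 and 6.90 with lingonberry against 7.24, 7.34 and 8.19 with bilberry. Its groups did not overlap, and it fell by 0.91 ± 0.19 (limma, adjusted p = 0.0166). Acss2, which makes cytosolic acetyl-CoA from acetate, read 9.96, 10.30 and 10.47 with lingonberry against 10.86, 11.11 and 11.29 with bilberry, and fell by 0.84 ± 0.18 (limma, adjusted p = 0.0175). Again no lingonberry liver reached a bilberry liver. Agpat2, an acyltransferase of triglyceride synthesis, overlapped between the diets and differed by -0.44 ± 0.11 (limma, adjusted p = 0.0446). Acly, which makes acetyl-CoA from citrate, differed by -0.45 ± 0.15 (adjusted p = 0.158). The count of 3 calls was 0 without lingonberry replicate 1, without lingonberry replicate 3 and with all probes tested, and it was 1 without the chip as a block and without bilberry replicate 1, 4 or 6.

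Against the shared high-fat livers these genes stood differently. Acss2 was at 0.08 (adjusted p = 0.875) with lingonberry and 0.91 (adjusted p = 0.00884) with bilberry. Acacb was at -0.71 (adjusted p = 0.0275) with lingonberry and 0.20 (adjusted p = 0.806) with bilberry. Rdh11, a retinol dehydrogenase of the retinoid list, was at 0.15 (adjusted p = 0.712) with lingonberry and 0.95 (adjusted p = 0.00788) with bilberry. It fell in lingonberry against bilberry livers on both of its probes, by 0.80 ± 0.17 at the brighter one (limma, adjusted p = 0.025), with values of 8.27, 9.02 and 9.32 in lingonberry livers against 9.46, 9.67 and 10.03 in bilberry livers. Among the 13 tested genes of retinoid metabolism it was the single call (0.357% of all probes were called lower), and the median of the list was -0.17. Rdh11 was not called without the chip as a block, with only the 12 arrays or with all probes tested. It was also not called in 7 of the 12 fits that left out 1 array, those without lingonberry replicate 1, 3 or 5 and without bilberry replicate 1, 3, 4 or 6.

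Cyp3a11, Ugt1a9 and Hsd17b6, enzymes that clear drugs and steroids, were among the largest rises with lingonberry. Cyp3a11 is the main inducible drug-metabolizing cytochrome P450 of mouse liver and a target of the receptor PXR, and it read 12.48, 13.04 and 13.35 in lingonberry livers. In bilberry livers it read 11.18, 11.61 and 12.15. The lowest lingonberry liver was above the highest bilberry liver, and the difference was 1.37 ± 0.21, a 2.58-fold change (limma, adjusted p = 0.000998).

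Ugt1a9, a glucuronosyltransferase that conjugates phenols, read 5.55, 6.20 and 6.81 with lingonberry against 4.55, 4.94 and 5.42 with bilberry, where 4 of 6 livers had a detected signal. The groups stood apart, and Ugt1a9 rose by 1.24 ± 0.22 (limma, adjusted p = 0.00508), with 1.08 at a second called probe (adjusted p = 9.85e-05). That probe was detected in 2 of the 6 bilberry livers, and with values set no lower than the lowest detected signal of each array its difference was 0.90. Which Cyp3a or Ugt1a copies the probes of these families can bind was not analysed here. Hsd17b6, a hydroxysteroid dehydrogenase that acts on androgens, read 10.91, 11.12 and 11.55 with lingonberry against 9.55, 9.90 and 10.67 with bilberry. Its groups did not overlap, with a rise of 1.22 ± 0.25 (limma, adjusted p = 0.0131). It was the single call among 9 tested steroid dehydrogenase and Akr1c genes, whose median was 0.07, while 0.195% of all probes were called higher. The call was lost without lingonberry replicate 5, without bilberry replicate 5 and with all probes tested.

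These 3 genes were higher in lingonberry than in high-fat livers as well. Cyp3a11 differed from high-fat livers by 2.07 (adjusted p = 3.97e-07) with lingonberry and by 0.70 (adjusted p = 0.142) with bilberry. Hsd17b6 differed by 1.38 (adjusted p = 0.0014) with lingonberry and 0.16 (adjusted p = 0.895) with bilberry, and Ugt1a9 by 1.36 (adjusted p = 0.000364) with lingonberry and 0.12 (adjusted p = 0.911) with bilberry. In blackcurrant livers Cyp3a11 averaged 10.40 ± 0.59 and in açai livers 10.82 ± 0.53 (SD, n = 6 each), so that lingonberry had the highest mean of the 6 diets and bilberry the next.

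In the list of CAR and PXR targets, Cyp3a11 and Ugt1a9 were the 2 calls among 24 tested genes, where 0.195% of all probes were called higher and 0.553% in either direction, and the median was 0.09. Cyp3a25, the member with the next smallest p, differed by 0.49 ± 0.16 (limma, adjusted p = 0.169), and Aldh1a1 by -0.26 ± 0.09 (adjusted p = 0.199). Gadd45b, a stress gene that CAR can induce, was called at a dim probe that was not detected in any bilberry liver. The fitted difference was 0.61 (limma, adjusted p = 0.00663). With bilberry values set no lower than the lowest detected signal of each array, lingonberry was at least 1.14-fold higher, a bound that was not tested. Gadd45b was chosen after its values were seen, and its brighter probe gave 0.80 ± 0.29 (adjusted p = 0.216).

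Glutathione and NRF2 target genes gave no limma call among 25 tested, with 20 positive differences and a median of 0.18. At an unadjusted p below 0.05 there were 12 of the 25, against 11.4% of all probes tested. Gsta4, a glutathione transferase that detoxifies lipid aldehydes, read 8.31, 8.71 and 8.86 with lingonberry against 7.89, 8.04 and 8.28 with bilberry. Its groups did not overlap, but the difference of 0.59 ± 0.15 did not pass (limma, adjusted p = 0.0711). Gstm1 differed by 0.68 ± 0.20 (adjusted p = 0.116), Gstp1 by 0.45 ± 0.14 (adjusted p = 0.127) and Ephx1 by 0.63 ± 0.21 (adjusted p = 0.17). Gstm7, a glutathione transferase that is not in the list and was chosen after its values were seen, went the other way. It read 7.36, 7.58 and 7.91 with lingonberry against 7.86, 8.19 and 8.28 with bilberry, overlapping, and fell by 0.50 ± 0.12 (limma, adjusted p = 0.0412). In lingonberry against high-fat livers 7 of the 25 were called higher, where 1.93% of all probes were. In bilberry against high-fat livers none was, with 3 at an unadjusted p below 0.05. How many of all probes reached that unadjusted p against high-fat livers was not counted.

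**Figure D3:**
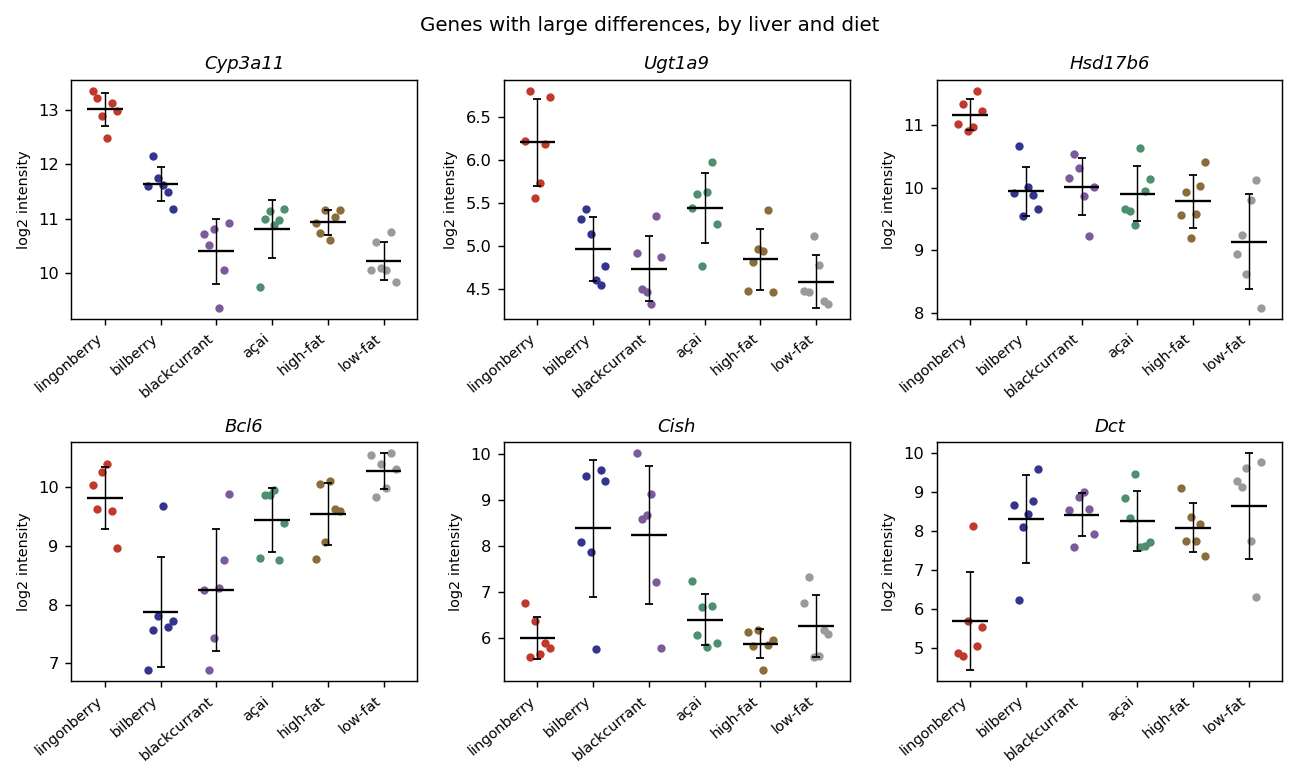
Log2 intensity of 6 genes in single livers (points, in the order of the 6 chips) of each diet, with means as lines and 1 SD as bars. Cyp3a11, Ugt1a9 and Hsd17b6 separate lingonberry from bilberry livers, while Bcl6 and Cish have 1 bilberry liver among the lingonberry values; Dct has 1 lingonberry liver at 8.14, among the bilberry values, and 1 bilberry liver at 6.23, nearer to the other lingonberry than to the other bilberry livers.

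A pair of genes known for opposite regulation by growth hormone showed large opposite differences. Bcl6, a transcriptional repressor that STAT5 lowers in liver, read 8.96, 9.82 and 10.39 in lingonberry livers against 6.88, 7.67 and 9.67 in bilberry livers. It rose by 1.93 ± 0.36, a 3.80-fold change (limma, adjusted p = 0.00663). Cish, a feedback inhibitor of cytokine receptors that STAT5 induces, read 5.59, 5.85 and 6.77 with lingonberry against 5.78, 8.76 and 9.65 with bilberry. It fell by 2.38 ± 0.48, a 5.20-fold change (limma, adjusted p = 0.0131).

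The overlap in both genes came from bilberry replicate 4. That liver had 5.78 for Cish and 9.67 for Bcl6, while the other 5 bilberry livers had 7.88 to 9.65 for Cish and 6.88 to 7.81 for Bcl6. On its chip the Cish difference was -0.10, against -3.95 on the chip with the largest one. Against the shared high-fat livers Cish was at 0.13 (adjusted p = 0.926) with lingonberry and 2.51 (adjusted p = 0.00884) with bilberry, and Bcl6 at 0.27 (adjusted p = 0.76) with lingonberry and -1.65 (adjusted p = 0.0198) with bilberry. The Cish call was lost without lingonberry replicate 2, without bilberry replicate 5 or 6, without both chip 2 arrays and with all probes tested, at adjusted p-values of up to 0.0676. The Bcl6 call was kept in all 23 alternative settings.

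Blackcurrant livers spread widely for both genes, from 5.80 to 10.02 for Cish and 6.90 to 9.88 for Bcl6. In açai livers Cish lay between 5.82 and 7.25, in high-fat livers between 5.30 and 6.18 and in low-fat livers between 5.61 and 7.33.

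**Figure D4:**
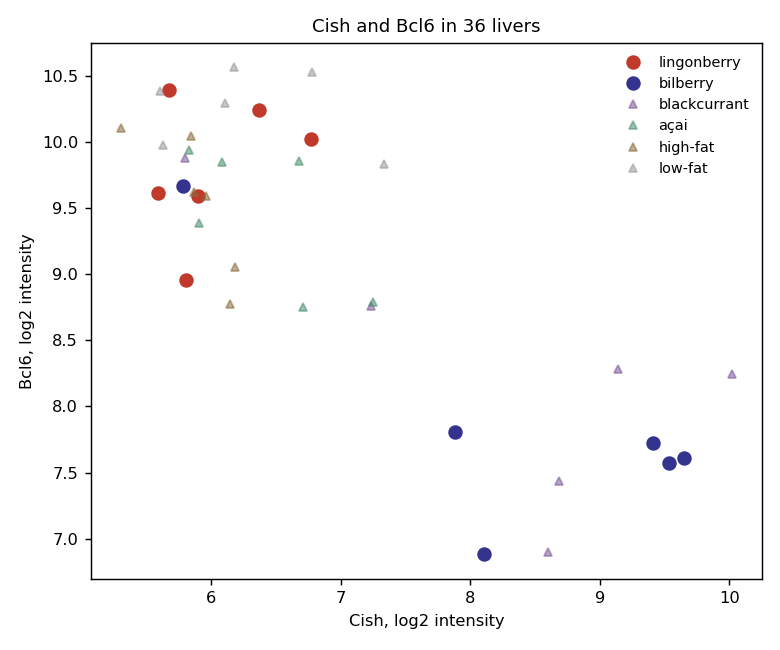
Bcl6 against Cish, both as log2 intensity, in 36 livers. Large circles are lingonberry and bilberry livers and triangles the other diets; 5 bilberry livers have Cish at 7.88 or more and Bcl6 at 7.81 or less, and bilberry replicate 4, with Cish at 5.78, lies beside the 6 lingonberry livers.

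The second annotated start of Bcl6, at chr16:23981284-23981533 on the minus strand of GRCm38.p6, is shown because its upstream window from RefSeq holds 3 matches to the STAT element TTCNNNGAA, marked by capitals.
Bcl6: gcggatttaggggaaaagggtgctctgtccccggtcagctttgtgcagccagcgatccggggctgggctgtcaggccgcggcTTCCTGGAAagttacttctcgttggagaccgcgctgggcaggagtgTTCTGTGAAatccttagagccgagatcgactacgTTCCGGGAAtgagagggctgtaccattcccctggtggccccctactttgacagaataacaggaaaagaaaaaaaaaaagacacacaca
The element, which reads the same on both strands, was in 7.02% of all windows and in 8.13% of all genes of the table. It stood in 5.88% of the 34 genes with a probe called lower. Among the 26 genes with a probe called higher, which include Bcl6, it stood in 15.4%, or 4 genes. The first annotated Bcl6 window held 1 match and the Cish window none. No match in a window says only that these letters are not in it.

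Of 9 tested growth hormone genes, Bcl6 and Cish were the 2 calls, where 0.553% of all probes were called in either direction. The median of the list was 0.03. Igf1, the main hormone that growth hormone induces in liver, differed by -0.16 ± 0.08 (limma, adjusted p = 0.437), and Igfals, its carrier subunit, by -0.25 ± 0.15 (adjusted p = 0.557). None of 20 tested male-biased and none of 7 tested female-biased liver genes was called by limma, with medians of -0.02 and 0.05. An unadjusted p below 0.05 was found for 2 and 1 of them, and for 11.4% of all probes tested.

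Phlda1, a pleckstrin homology-like protein that responds to growth factors, read 7.24, 7.44 and 8.38 with lingonberry against 8.48, 9.46 and 10.29 with bilberry. No values overlapped, and it fell by 1.82 ± 0.35 (limma, adjusted p = 0.00881). Foxq1, a forkhead transcription factor, read 6.04, 6.65 and 7.30 with lingonberry against 7.43, 8.60 and 9.23 with bilberry, and fell by 1.81 ± 0.41 (limma, adjusted p = 0.0343), again with no overlap. Neither was called against the shared high-fat livers, where Phlda1 was at -0.46 (adjusted p = 0.54) with lingonberry and 1.36 (adjusted p = 0.0666) with bilberry.

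Among genes of methyl group metabolism, Bhmt and Nnmt were lower with lingonberry. Bhmt, which remethylates homocysteine with betaine, read 10.32, 10.50 and 11.32 in lingonberry livers against 10.85, 11.87 and 12.28 in bilberry livers. The groups overlapped, with a fall of 1.05 ± 0.23 (limma, adjusted p = 0.0262), and without the chip as a block it was not called. Nnmt, which spends methyl groups on nicotinamide, read 7.05, 7.82 and 8.45 with lingonberry against 8.98, 9.13 and 9.74 with bilberry at its probe with the largest difference.

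Nnmt did not overlap between the diets and fell by 1.42 ± 0.32 (limma, adjusted p = 0.0319). At this probe the call was lost with both chip 2 arrays left out. The 2 brighter Nnmt probes gave -1.17 (adjusted p = 0.0085) and -1.08 (adjusted p = 0.031). Chdh, which makes betaine from choline, was higher on 1 of 2 probes by 0.44 ± 0.09 (adjusted p = 0.0109). Agxt2, an aminotransferase that degrades methylarginines, was lower on 2 of 3 probes, by 0.60 and 0.52 on the log2 scale. Tpmt, a thiopurine methyltransferase, was lower on 2 of 3 probes, by 0.58 and 0.53. Chdh, Agxt2 and Tpmt were chosen after their values were seen.

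Bhmt was the 1 call among 17 tested genes of sulfur amino acids and taurine, while 0.357% of all probes were called lower. The median of the list was -0.14. Its neighbour in function Bhmt2 differed by -0.32 ± 0.10 (limma, adjusted p = 0.127) and the sulfurtransferase Tst by -0.27 ± 0.07 (adjusted p = 0.0859). Against the shared high-fat livers Bhmt was at -1.14 (adjusted p = 0.00395) with lingonberry and -0.10 (adjusted p = 0.944) with bilberry. Nnmt was at -1.91 (adjusted p = 0.000785) with lingonberry and -0.49 (adjusted p = 0.677) with bilberry.

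Dct, a dopachrome tautomerase known from pigment synthesis, gave the largest fall. It read 4.80, 5.29 and 8.14 in lingonberry livers and 6.23, 8.55 and 9.60 in bilberry livers. Lingonberry replicate 4 was the liver at 8.14, with the other 5 at 5.67 or below, and its value lay above 2 of the 6 bilberry livers. Bilberry replicate 2 was the liver at 6.23, while the other 5 bilberry livers lay at 8.11 or above. The difference was -2.63 ± 0.51, a 6.19-fold change (limma, adjusted p = 0.00945), and the second probe of Dct was called as well, at -2.16 (adjusted p = 0.0106). The other diets averaged 8.41 ± 0.55 with blackcurrant, 8.26 ± 0.77 with açai, 8.09 ± 0.62 on high fat and 8.63 ± 1.36 on low fat (SD, n = 6 each). Lingonberry livers had the lowest mean, and Dct was at -2.41 against high-fat livers with lingonberry (adjusted p = 0.00589) and 0.22 with bilberry (adjusted p = 0.94).

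Treh, the enzyme that splits the disaccharide trehalose, read 4.61, 4.99 and 5.76 with lingonberry, where 4 of 6 livers had a detected signal, against 5.83, 6.03 and 6.65 with bilberry. The groups did not overlap, and it fell by 1.08 ± 0.23 (limma, adjusted p = 0.021). Açai livers had the highest Treh of the 6 diets, at 7.09 ± 0.26 (SD, n = 6).

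Of the other large rises, Pcp4l1, a small protein with an IQ motif, read 6.77, 7.57 and 8.0 with lingonberry against 5.75, 6.38 and 6.93 with bilberry. The ranges overlapped slightly, and the rise was 1.20 ± 0.16 (limma, adjusted p = 0.000133). Tuba8, an alpha-tubulin, read 4.99, 5.57 and 5.97 with lingonberry against 4.38, 4.65 and 4.72 with bilberry, with detected signal in 3 of the 6 bilberry livers and a fitted difference of 0.90 ± 0.14 (limma, adjusted p = 0.00101). The bilberry mean of 4.59 was below the lowest signal of a detected probe, on average 4.69 on these arrays, and with values set no lower than that signal the difference was 0.79. At its second probe no bilberry liver was detected, and the fitted difference was 0.86 (limma, adjusted p = 0.00663). Lingonberry was at least 1.57-fold higher there with the dim group set at the higher of its own value and the lowest signal of any detected probe. That bound was not tested.

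Transporters were represented by Slc39a4, the zinc importer ZIP4, and by Slc6a8, the creatine transporter. Slc39a4 read 7.77, 8.57 and 8.79 with lingonberry against 7.26, 7.69 and 8.13 with bilberry, a rise of 0.79 ± 0.18 with overlap (limma, adjusted p = 0.0376). A dim second probe gave 0.30 (adjusted p = 0.499). Slc6a8 read 5.52, 6.00 and 6.39 with lingonberry against 4.57, 5.26 and 5.66 with bilberry, also overlapping, and rose by 0.77 ± 0.18 (limma, adjusted p = 0.0367). Neither call stood without the chip as a block. Among 18 tested genes of iron and zinc handling Slc39a4 was the 1 call, while 0.195% of all probes were called higher. The median of the list was 0.02. With both chip 2 arrays left out Slc39a4 was at 0.82 (limma, adjusted p = 0.0553).

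The remaining rises were smaller. Tmem86a, a lysoplasmalogenase, rose by 0.71 ± 0.15 (limma, adjusted p = 0.0202), and Cyb5r1, a cytochrome b5 reductase, by 0.67 ± 0.14 with no overlap (adjusted p = 0.0168). Hspg2, the basement membrane proteoglycan perlecan, rose by 0.67 ± 0.16 at 1 of 2 probes (adjusted p = 0.0414). Rab3d, a GTPase of secretory granules that pancreatic acinar cells also express, rose by 0.64 ± 0.13 (adjusted p = 0.0105), a call that held with both chip 2 arrays left out.

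Fat oxidation and lipid droplet genes gave no limma calls among 23 and 17 tested, with medians of 0.11 and -0.0064. In each list 4 genes had an unadjusted p below 0.05, as 11.4% of all probes tested did. Cyp4a14, a fatty acid omega-hydroxylase induced through PPARalpha, varied widely, with 10.80, 12.35 and 12.52 in lingonberry livers against 8.38, 10.28 and 11.91 in bilberry livers. It was higher with lingonberry on all 6 chips, yet its difference of 1.68 ± 0.74 did not pass (limma, adjusted p = 0.37). Ehhadh, a peroxisomal enzyme of the same list, differed by 0.55 ± 0.18 with no overlap (adjusted p = 0.165). Plin3 differed by 0.38 ± 0.10 and Fitm1 by -0.81 ± 0.21 (adjusted p = 0.0608 for both).

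Bile acid genes gave no limma call among 19 tested, with a median of 0.03. At an unadjusted p below 0.05 there were 4 of the 19, against 11.4% of all probes tested. Cyp39a1, a hydroxylase of oxysterols, differed by 0.85 ± 0.22 (limma, adjusted p = 0.0722) and Cyp8b1, which sets the share of cholic acid, by -0.50 ± 0.18 (adjusted p = 0.21).

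The acute phase list, plasma proteins made in inflammation, gave no limma call among 25 tested genes, with 3 at an unadjusted p below 0.05 and a median of -0.06. The differences of the list ran from -0.80 to 0.58, and its smallest adjusted p was 0.362 (limma), at a member not named here. Lbp differed by 0.58 ± 0.27 (limma, adjusted p = 0.394) and Orm1 by -0.34 ± 0.20 (adjusted p = 0.548). Against the shared high-fat livers 5 of the 25 were lower with lingonberry, where 2.08% of all probes were, and 2 with bilberry, where 0.318% were. In all, 26 of 34 pathway lists held no called gene at their brightest probes, among them complement and coagulation, interferon response, circadian clock, endoplasmic reticulum stress, ribosomal proteins, proteasome and oxidative phosphorylation. Of the 536 tested entries of these 26 lists 85 had an unadjusted p below 0.05, where 11.4% of all probes tested did. A gene that stands in several of the lists is counted in each, so the entries are not all distinct genes. None of 12 lists of markers of liver and other cell types held a call either, with 6 of 61 tested members at an unadjusted p below 0.05. Of the 17 tested pancreatic genes 15 had positive differences, with a median of 0.23, and the part of these transcripts in the results beside them was not tested beyond the fit without the chip 2 arrays, which gave 43 probes higher and 60 lower.

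**Figure D5:**
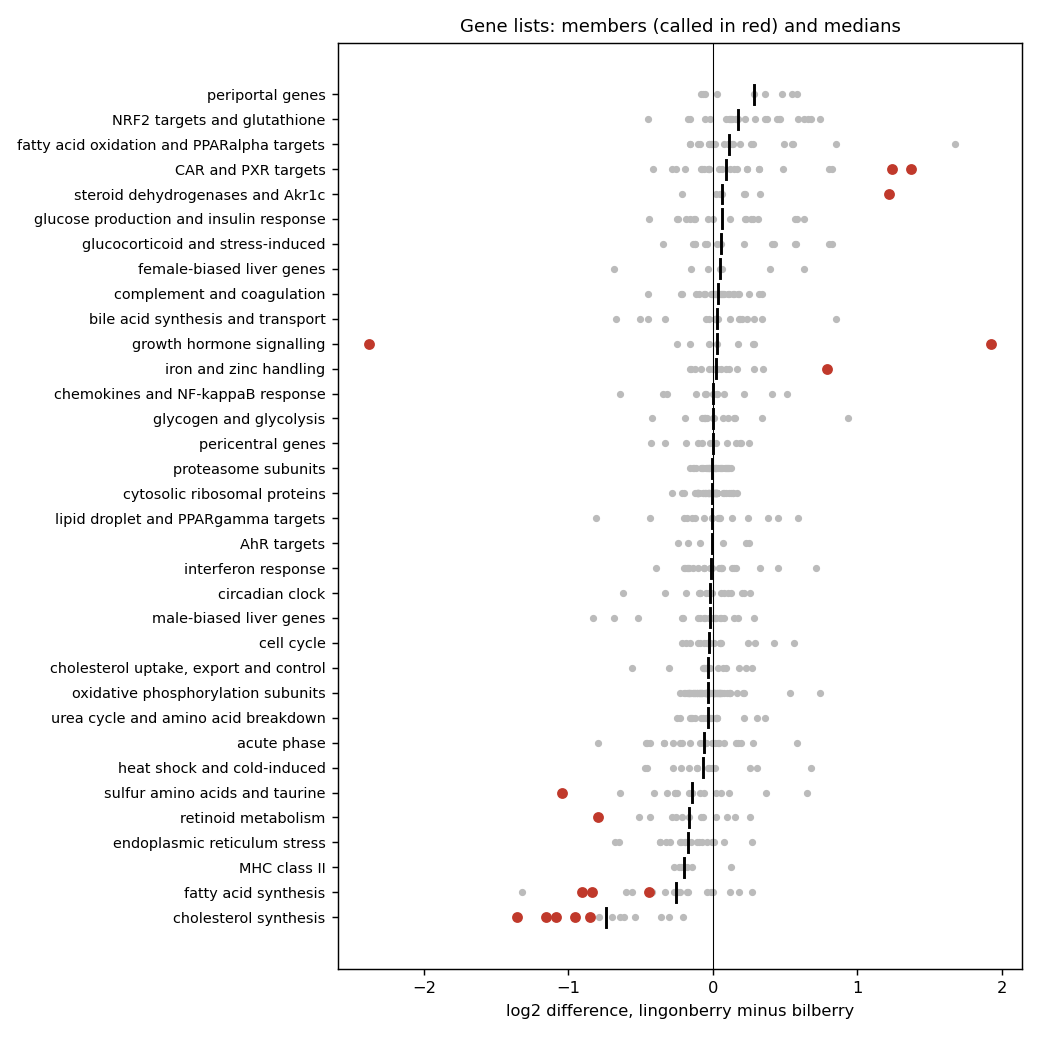
Log2 difference, lingonberry minus bilberry, of the tested genes of 34 lists, each through its brightest probe. Red points are called genes, grey points are not, and black bars are list medians; cholesterol synthesis, at the bottom, has the lowest median at -0.74, and 26 lists hold no red point.

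Of the called probes 14 carried no gene symbol in the annotation used here, 4 of them higher and 10 lower with lingonberry. The smallest p-value of all belonged to one of these, ILMN_1239982, with 5.42, 5.94 and 6.23 in lingonberry livers against 4.24, 4.48 and 5.20 in bilberry livers. Its groups did not overlap, and it rose by 1.27 ± 0.12 (limma, adjusted p = 9.51e-08). It was detected in 2 of the 6 bilberry livers, and with values set no lower than the lowest detected signal of each array the difference was 1.07. Against the shared high-fat livers it was at 1.37 (adjusted p = 1.38e-08) with lingonberry and 0.10 (adjusted p = 0.849) with bilberry. The probe was chosen after its values were seen. Of the lower ones, ILMN_2540103 read 6.73, 8.41 and 8.73 with lingonberry against 8.76, 9.61 and 9.75 with bilberry, a fall of 1.25 ± 0.23 (adjusted p = 0.00663). Gm4956, a predicted gene with no role given here, read 5.41, 6.62 and 8.12 with lingonberry against 7.20, 8.06 and 8.45 with bilberry. The groups overlapped, it was lower on 5 of the 6 chips, with chip differences from -2.67 to 0.52, and it fell by 1.27 ± 0.29 (limma, adjusted p = 0.0307).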

How the data were processed

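Liver RNA of 36 mice was measured on Illumina MouseWG-6 v2.0 beadchips, 6 mice for each of 6 diets, and the lingonberry and bilberry arrays are compared. Per the labels, RNA came from an AllPrep kit and was amplified and marked with biotin. The authors deposited raw intensity values, a linear brightness, and the detection p-value of each probe. They also deposited processed log2 values; how the authors normalized these is not given in the sources used, and they differed by at most 0.0501 from the values computed here. Of 45281 probes with a detection p-value, 17907 (39.5%) were tested, and 974 control entries without one were left out.

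Raw intensities were processed with neqc (offset 16) of limma 3.58.1 under R 4.3.3. Files were read and results drawn with pandas 2.3.3 and matplotlib 3.10.9 under Python 3.11.15. The fit was lmFit on all 36 arrays with a mean per diet and the chip as a block, then contrasts and eBayes, two-sided. The Benjamini-Hochberg adjustment ran over all probes tested, and a probe was called below 0.05. The titles name the chip, so livers of a chip are paired by it. The deviations of lingonberry and bilberry arrays of the same chip from their diet means correlated at 0.0473 to 0.333. The median over all pairs of arrays was 0.107 on the same chip and -0.0294 on different chips. The p-values rest on the spread between mice over all 6 diets, 6 mice per diet, and that number limits the precision. Each probe thus has 1 standard error for all comparisons, which does not follow a wider spread in 1 diet. For Cish it was 0.48, with an SD of 0.46 in lingonberry and 1.49 in bilberry livers.

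Gene symbols came from the platform annotation, updated through RefSeq: 34885 probes had 1 symbol, 18 several and 10378 were not listed. Named are the 12 largest called differences in each direction alike in sign on 5 or more of the 6 chips, 1 probe a gene, among probes with 1 symbol that is not a clone, locus or predicted name, and up to 4 members of each described list with the smallest p, through the brightest probe, or up to 8 in a list with 5 or more calls. In the acute phase list the member with the smallest p was left unnamed. Members and lists were chosen with earlier results of these data known. Motifs were searched on both strands of RefSeq windows of 250 bases (GRCm38.p6). The fit was tested on simulated data. Alternatives were the fit without or with a random chip block, only the 12 arrays, other background corrections, the processed values, other probe filters, trend and array weights, each array left out and, added after seeing the data, both chip 2 arrays left out.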

Additional observations from a re-analysis of the deposited data

Results flagged for a closer look

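Of 154 groups of 6 livers checked for the 77 genes described, 9 had 1 liver far from the other 5 by Dixon's criterion, and chance gives about 1 in 20 groups. Among lingonberry livers, replicate 4 had Dct at 8.14, while the others lay at 4.80 to 5.67. The same liver was lowest for Cyp4a14 at 10.8, with the others at 11.93 to 12.52, and for Cyp39a1 at 5.34, with the others at 6.09 to 6.32. Lingonberry replicate 3 was lowest for Fdps at 9.86 and for Lss at 6.59, with the others at 10.95 to 11.40 and 7.37 to 7.78. Lingonberry replicate 6 was highest for Cyb5r1 at 7.35, with the others at 6.39 to 6.68, and without it Cyb5r1 was not called. Among bilberry livers, replicate 4 had Bcl6 at 9.67, with the others at 6.88 to 7.81. Bilberry replicate 6 was highest for Nnmt at 9.74, with the others at 8.98 to 9.18, and lowest for the brightest Nsdhl probe at 8.33, with the others at 8.57 to 8.70.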

How the results depend on the processing

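None of the 77 genes recomputed reversed its direction in any of the 23 alternatives. The count of 99 called probes was 44 with no replicate block, 47 with all probes tested and 225 with array weights, and between 40 and 199 with 1 array left out. The other planned settings gave 80 to 125, and leaving out both chip 2 arrays gave 103. Similar counts need not hold the same probes. Of the 80 called with only the 12 arrays, 45 were among the 99, and the overlap without the chip 2 arrays was not counted. The count of called cholesterol synthesis genes, 5, was 3 with no replicate block, with all probes tested and with trend and robust variances. It was 8 with array weights, 3 to 7 with 1 array left out and 4 with both chip 2 arrays left out. The median of that list ran from -0.85 to -0.57 with 1 array left out. Of the 24 genes named by size, 11 kept their call in every alternative: Aacs, Bcl6, Cyp3a11, Dct, Fdps, Lss, Mvd, Pcp4l1, Phlda1, Tuba8 and Ugt1a9. The other 13 lost it in 2 (Rab3d) to 12 (Nnmt, Nsdhl and Slc6a8) alternatives. With 1 array left out, the call was lost in 9 of 12 fits for Nsdhl and Slc6a8, in 8 for Bhmt, Hspg2 and Nnmt, in 7 for Foxq1, Slc39a4 and Treh, in 5 for Tmem86a, in 3 for Cish and Cyb5r1, in 2 for Hsd17b6 and in 1 for Rab3d. The highest adjusted p of these 13 genes in the alternatives that ended a call ran from 0.0564 for Hsd17b6 to 0.201 for Slc39a4. With no replicate block, Bhmt, Hspg2, Slc39a4, Slc6a8 and Tmem86a lost their calls. With both chip 2 arrays left out, Cish, Nnmt, Nsdhl and Slc39a4 lost theirs. With no replicate block the comparisons with other diets gave 403 called probes for lingonberry against high-fat, 68 for bilberry against high-fat, 176 for lingonberry against blackcurrant, 38 for blackcurrant against bilberry, 599 for açai against lingonberry, 316 for açai against blackcurrant and 138 for açai against bilberry. The cause of these shifts was not tested. Chip position goes with the diet in all fits, and dim probes such as Mvd, Tuba8, Treh and Ugt1a9 lie near background in 1 of the diets.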

Other observations

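Genes outside the groups above were also among the calls, and they were picked after their values were seen. Zfp655, a zinc finger gene, was 7.07 ± 0.11 in lingonberry and 8.01 ± 0.30 in bilberry livers (SD, n = 6 each), a difference of -0.94 ± 0.15 with no overlap (limma, adjusted p = 0.00136), while its 2 dim probes gave 0.08 and -0.05. Serpina12, which encodes vaspin, was 11.60 ± 0.42 in lingonberry and 12.29 ± 0.31 in bilberry livers, a difference of -0.68 ± 0.15 (limma, adjusted p = 0.0318). Glb1, the lysosomal beta-galactosidase, was 7.36 ± 0.24 in lingonberry and 6.87 ± 0.09 in bilberry livers, a difference of 0.48 ± 0.10 with no overlap (limma, adjusted p = 0.017). Mtf1, the metal-responsive transcription factor, was 6.87 ± 0.28 in lingonberry and 6.39 ± 0.30 in bilberry livers, a difference of 0.48 ± 0.12 (limma, adjusted p = 0.0495). Aldh1b1, a mitochondrial aldehyde dehydrogenase, was 6.13 ± 0.49 in lingonberry and 6.97 ± 0.38 in bilberry livers, a difference of -0.84 ± 0.19 (limma, adjusted p = 0.0262).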
